A study of Mus musculus with 4 samples.

Results

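The expression of 9 homeobox genes was followed, namely Msx1, Msx2, Prrx1, Prrx2, Dlx1, Dlx2, Dlx5, Dlx6 and Pitx1, which were chosen by symbol from a transcript table of 20701 gene symbols. For each of these 9 genes the transcript entry holding the most raw counts over the 4 libraries was used. The cells were cardiac progenitor cells (CPCs) derived from mouse embryonic stem (ES) cells of the E14 Tg(Nkx2-5-EmGFP) line, in which GFP reports Nkx2-5, and GFP-positive cells were sorted by FACS at day 5 of differentiation. The comparison was between 2 libraries from control clones (control) and 2 libraries from Isl1-/- clones made by CRISPR/Cas9 with a pair of guide RNAs (Isl1_KO), all on the same reporter background. Per the study's methods, RNA came from 2 different clones of each genotype, all of 1 parental line. The sample titles give replicate numbers only. The p-values measure the spread between libraries of a group, which lay mostly between the Isl1_KO libraries (16.3% against 1.29%, given below as coefficients of variation). A knockdown is named in the series' design text, whereas the sample titles, the genotype label, the column names and the methods give a knockout.

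Msx proteins are homeodomain transcription factors that mostly repress transcription and are classical targets of BMP signalling in limb buds, pharyngeal arches, neural crest and the endocardial cushions of the heart. Prrx1 and Prrx2 are paired-related homeodomain factors of limb, craniofacial and other mesenchyme, including mesenchyme of the great vessels. Dlx genes lie in the genome as convergently transcribed pairs and pattern the pharyngeal arches, the limb ridge and the forebrain, and Pitx1 specifies hindlimb and first arch identity. Isl1 is a LIM-homeodomain factor of second heart field progenitors.

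Between 8821536 and 13186103 reads were counted per library over 1 entry per symbol. A floor of 3 counts therefore corresponded to 0.228 to 0.340 CPM, the read count scaled to the effective library size. Counts of Isl1 itself were 309 and 326 in control against 17 and 24 in Isl1_KO, a log2 fold change of -4.39 with an SE of 0.213 (adjusted p = 0.00276), lower in both libraries labelled as knockout. Summed over 13 cardiac progenitor markers the level was 1518 and 1523 CPM in control and 861 and 910 CPM in Isl1_KO. Among these markers, which include Isl1 itself, 8 of 13 tested were lower and none was higher. Mef2c, Myocd, Tbx5 and Nkx2-5 were among the lower ones. Of all genes tested 1.94% were lower. Fgf10 (0.83) and Kdr (0.11), chosen after their values were seen, had positive log2 fold changes and did not pass the threshold. The sum over 4 Y-linked genes was 65.7 and 62.2 CPM in control and 0.0769 and 0.0868 CPM in Isl1_KO, that is 1 count in each knockout library, and this difference cannot be told apart from the genotype. The biological coefficient of variation was 11.1% with all libraries, 16.3% without either control library and 1.29% without either Isl1_KO library, so the spread lay between the Isl1_KO clones. In the rest of the text a log2 fold change is Isl1_KO over control from edgeR, with Benjamini-Hochberg adjustment over 12715 genes tested and a threshold of 0.05.

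The 9 genes lie on 5 chromosomes (positions in the mm9 build, GENCODE M1). Msx1 lies at chr5:38211724-38215822 and Msx2 at chr13:53562250-53568443, both on the minus strand. Prrx1 spans chr1:165175247-165243841 on the minus strand and Prrx2 spans chr2:30690492-30736761 on the plus strand. Pitx1 lies at chr13:55926415-55937553 on the minus strand, 2.36 Mb from Msx2. Dlx1 (chr2:71366170-71372038, plus strand) and Dlx2 (chr2:71381466-71384811, minus strand) are 9.43 kb apart, and Dlx6 (chr6:6813334-6818568, plus strand) and Dlx5 (chr6:6827805-6832085, minus strand) are 9.24 kb apart. Reads were counted on both strands, and 335 exon bases of Dlx1 overlap Dlx1as on the opposite strand, so Dlx1 reads and reads of that antisense transcript cannot be told apart. The exons of all other 8 genes overlap no exon of another gene in GENCODE M1. Overlap in the RefSeq exons used for counting was not tested.

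For the Msx and Prrx genes, which carry the differences described next, the 250 bases upstream of the annotated start are shown 5′ to 3′ from RefSeq on GRCm38.p6, a newer build than that of the gene positions above. They cover chr1:163313651-163313900 (minus strand), chr2:30845117-30845366 (plus strand), chr5:37824586-37824835 (minus strand) and chr13:53472781-53473030 (minus strand), and capitals mark each TAAT or its reverse complement ATTA, the core letters that homeodomains prefer.
Prrx1: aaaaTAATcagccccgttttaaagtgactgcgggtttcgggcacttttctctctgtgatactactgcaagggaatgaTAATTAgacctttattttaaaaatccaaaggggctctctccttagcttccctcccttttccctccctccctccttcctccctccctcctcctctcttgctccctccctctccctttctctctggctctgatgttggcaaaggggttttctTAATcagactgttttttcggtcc
Prrx2: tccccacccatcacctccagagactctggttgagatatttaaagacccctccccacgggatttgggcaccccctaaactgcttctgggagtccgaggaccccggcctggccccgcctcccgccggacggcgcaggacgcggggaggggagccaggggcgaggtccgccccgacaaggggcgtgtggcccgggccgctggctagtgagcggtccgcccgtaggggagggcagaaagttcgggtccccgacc
Msx1: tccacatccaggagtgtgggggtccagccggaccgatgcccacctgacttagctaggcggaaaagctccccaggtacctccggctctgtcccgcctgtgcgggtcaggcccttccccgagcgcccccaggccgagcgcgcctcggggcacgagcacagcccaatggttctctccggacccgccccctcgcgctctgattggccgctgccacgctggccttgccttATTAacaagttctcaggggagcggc
Msx2: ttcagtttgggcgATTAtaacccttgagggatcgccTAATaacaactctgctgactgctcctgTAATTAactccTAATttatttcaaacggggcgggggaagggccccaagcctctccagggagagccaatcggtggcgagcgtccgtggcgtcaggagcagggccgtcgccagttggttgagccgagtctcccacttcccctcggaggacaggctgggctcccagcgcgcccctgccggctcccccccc

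The upstream windows of the paralogues were unlike each other. Prrx1 had 4 matches to TAAT on either strand and Prrx2 had 0, while Msx2 had 5 matches and Msx1 had 1, with overlapping matches counted on both strands. TAAT occurred in 54.9% of 32851 promoter windows of the same length, so a match is common. The longer letters CTAATT occurred once in Prrx1 and once in Msx2 and in 7.48% of all windows, and CTAATG occurred in none of the 6 windows available (6.36% of all windows). The Prrx1 window was also the poorest in G and C among these 6, with 47.6% G and C and 4 CpG dinucleotides, against 70.0% and 21 in Prrx2, 68.0% and 20 in Msx1, and 61.6% and 16 in Msx2, where the median window had 52.4% and 6. Dlx1 and Dlx2 held no TAAT and had 68.0% and 66.4% G and C. Dlx2 held 1 match to GGCGCC, which occurred in 9.59% of windows, and none of the 6 windows held AGATAA (9.99%) or TATAAA (12.4%). These matches describe the letters only.

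The Prrx and Pitx1 genes were lower and the Msx genes were higher in the Isl1_KO libraries, while the Dlx genes stood near the detection floor. Prrx1 was the single gene of the 9 that passed the adjusted threshold, and it fell about 3.33-fold. Prrx2, its paralogue, was 2.14-fold lower and Msx2 was 1.64-fold higher, and both missed the threshold narrowly. Of the 9 genes, 6 had enough counts to be tested and Dlx1, Dlx5 and Dlx6 did not. Thus 1 of 6 tested genes was called, where 2.45% of all genes tested were called (1.94% lower and 0.511% higher). In DESeq2, 3 of the 9 were called by the adjusted p (Msx2 higher, Prrx1 and Prrx2 lower), which called 4.67% of 12933 genes. Dlx1, Dlx5 and Dlx6 had no adjusted p there, so these were 3 of 6 genes with one. The study's criteria, an unadjusted p under 0.05 and an absolute log2 fold change above 0.58, called the same 3 genes. These criteria called 5.89% of 16855 genes (1.32% higher and 4.57% lower). In edgeR the unadjusted p was under 0.05 for Msx1, Msx2, Prrx1 and Prrx2 and for 23.2% of all genes tested. In 5 of the 6 tested genes the groups did not overlap, with Msx1 and Msx2 above control and Prrx1, Prrx2 and Pitx1 below it, but this held for 58.1% of all genes tested (29.2% above and 29% below), so it says little with 2 libraries a group. Without Isl1_KO replicate 1 all 6 tested genes were called, and without Isl1_KO replicate 2 all of them but Dlx2, in fits where the spread came from the control libraries alone and 6355 of 12870 and 4187 of 12793 genes were called.

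**Figure D1:**
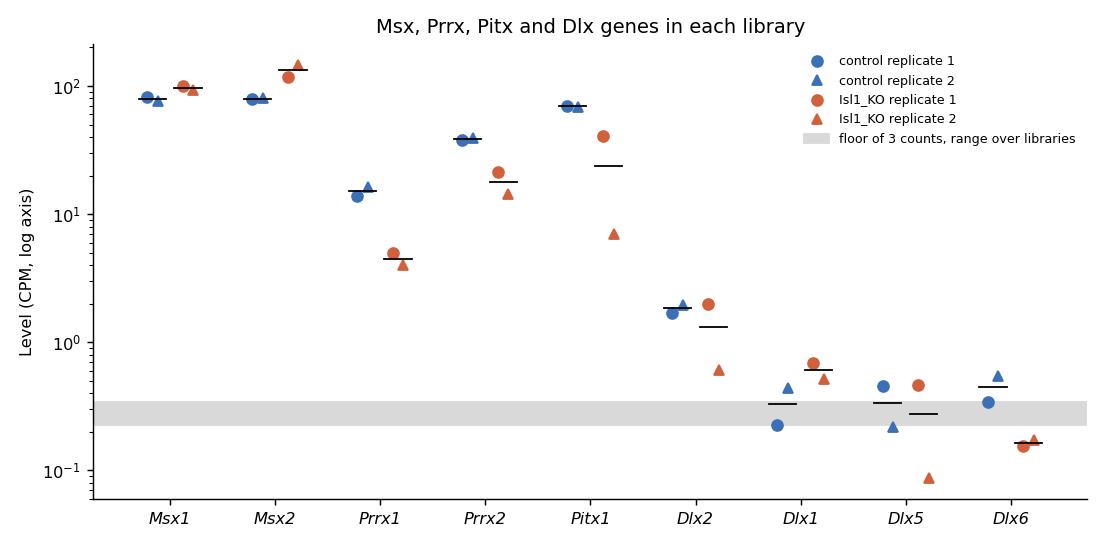
Level of each of the 9 genes in CPM (log axis) in the control (blue) and Isl1_KO (orange) libraries, with circles for replicate 1, triangles for replicate 2, a black line at each group mean and a grey band for the floor of 3 counts (0.228 to 0.340 CPM). Prrx1, Prrx2 and Pitx1 lie lower and Msx2 higher in both Isl1_KO libraries, and the Pitx1 triangle lies far below its circle.

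Prrx1 is a paired-related factor that keeps limb and craniofacial mesenchyme undifferentiated. Its counts were 122 and 148 in control against 65 and 46 in Isl1_KO, where the libraries had more reads in total. The level was 13.8 and 16.2 CPM in control (15.0 ± 1.66, SD, n = 2) and 5.00 and 3.99 CPM in Isl1_KO (4.49 ± 0.711, SD, n = 2). Both Isl1_KO libraries lay below both control libraries, and the gap between the groups was larger than the spread within either. The log2 fold change was -1.73 (SE 0.197, 95% interval -2.23 to -1.23, edgeR adjusted p = 0.0240). Without control replicate 1 the log2 fold change was -1.84, and without control replicate 2 it was -1.62. The call was lost in both of these fits, where the spread came from the Isl1_KO libraries alone. They therefore cannot show whether the call rested on the control values. The call itself used the spread pooled over both groups (11.1%), which the low control spread (1.29%) brought below that of the Isl1_KO libraries (16.3%). How far the call leaned on the low control spread was not tested. Of 11 alternatives 9 called it. Prrx1 has 3 transcript entries in the table, and the shorter one (NM_001025570), which shares reads with the others, had counts of 44 and 47 in control and of 20 and 19 in Isl1_KO, lower in both knockout libraries as well.

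Prrx2 acts partly redundantly with Prrx1 in the skeleton and vessels. It had counts of 334 and 357 in control and of 275 and 166 in Isl1_KO. In CPM it was at 37.9 and 39.1 in control (38.5 ± 0.813, SD, n = 2) and at 21.1 and 14.4 in Isl1_KO (17.8 ± 4.76, SD, n = 2). The groups did not overlap, and Isl1_KO replicate 2 was the lower of the knockout libraries. The log2 fold change was -1.11 (SE 0.195, 95% interval -1.60 to -0.62), with an unadjusted p of 0.00200 and an edgeR adjusted p of 0.0626, above the threshold. DESeq2 called it (log2 fold change -1.11, adjusted p = 5.53e-04), as did edgeR without a filter on low counts (adjusted p = 0.0337). Per length, the level of Prrx2 was 12.1 and 10.6 times that of Prrx1 in the control libraries and 18.7 and 15.9 times in the Isl1_KO libraries, so the ratio was higher in both knockout libraries. Of the nearest tested genes on either side, Gorab and Fmo1 beside Prrx1 had log2 fold changes of -0.07 and -0.87, and Asb6 and Ptges beside Prrx2 had -0.01 and -0.81, and none of these 4 passed the threshold.

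Msx2, which mediates BMP responses in arch, limb and cardiac cushion tissue, lay in the other direction, just short of the threshold. It had counts of 697 and 736 in control and of 1529 and 1691 in Isl1_KO. The level was 79.1 and 80.5 CPM in control (79.8 ± 1.00, SD, n = 2) and 118 and 147 CPM in Isl1_KO (132 ± 20.6, SD, n = 2). The control libraries were close together, both knockout libraries were above them, and Isl1_KO replicate 2 was the highest. The log2 fold change was 0.73 (SE 0.119, 95% interval 0.42 to 1.03), with an unadjusted p of 0.00147 and an edgeR adjusted p of 0.0556. It passed in DESeq2 (0.73, adjusted p = 6.40e-04) and in edgeR without a filter (adjusted p = 0.0270), and the direction was the same in all 11 alternatives, with a range of 0.56 to 0.88.

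Msx1, which is partly redundant with Msx2 in teeth, palate and cushions, showed a smaller difference. It had counts of 724 and 700 in control and of 1296 and 1069 in Isl1_KO. This gave 82.2 and 76.6 CPM in control (79.4 ± 3.95, SD, n = 2) and 99.6 and 92.7 CPM in Isl1_KO (96.2 ± 4.86, SD, n = 2). The groups did not overlap, but the distance between the nearest libraries was small. The log2 fold change was 0.28 (SE 0.0777, 95% interval 0.08 to 0.47, edgeR adjusted p = 0.131), and it was not called in DESeq2 (adjusted p = 0.387). Per length, Msx1 exceeded Msx2 in both control libraries, with ratios of 1.16 and 1.07, and was below it in both Isl1_KO libraries, with ratios of 0.949 and 0.708. Among the neighbours on the chromosome, Stk32b and Stx18 beside Msx1 (0.37 and 0.06) and Sptlc1 and Sfxn1 beside Msx2 (0.07 and 0.35) did not pass the threshold.

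The genes whose levels followed the same course over the 4 libraries were sought among 10883 genes by the Euclidean distance of centred log2 CPM. Those nearest to Msx1 were Zfp39 (distance 0.0194), 6330408A02Rik (0.0261) and Prr5 (0.0266). Those nearest to Msx2 were Timm10 (0.0626), Aff3 (0.0661) and Lyar (0.0735). Lyar had 93.3 and 94.2 CPM in control and 133 and 162 CPM in Isl1_KO, in the same order of libraries as Msx2. With 4 libraries such likeness is a description.

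Pitx1, the hindlimb and first arch factor, differed widely between the Isl1_KO libraries. It had 617 and 632 counts in control, 530 in Isl1_KO replicate 1 and 80 in Isl1_KO replicate 2. The levels were 70.0 and 69.2 CPM in control (69.6 ± 0.625, SD, n = 2) and 40.7 and 6.94 CPM in Isl1_KO (23.8 ± 23.9, SD, n = 2). Both knockout libraries were below control, one moderately and one strongly. The log2 fold change was -1.53 (SE 0.703, 95% interval -3.32 to 0.25, edgeR adjusted p = 0.268). The difference did not pass the threshold, and its interval spanned both directions. Without Isl1_KO replicate 1 it was -3.32, and without Isl1_KO replicate 2 it was -0.77. Isl1_KO replicate 1 exceeded replicate 2 by 5.87-fold (95% exact binomial interval 4.63 to 7.52, counting error only). Of 10884 genes, 4 had a drop from Isl1_KO replicate 1 to replicate 2 at least as large as that of Pitx1, itself included, and the others were Hba-x, Col3a1 and Crispld2. The neighbours Pcbd2 (-0.06) and H2afy (-0.15) did not pass the threshold.

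**Figure D2:**
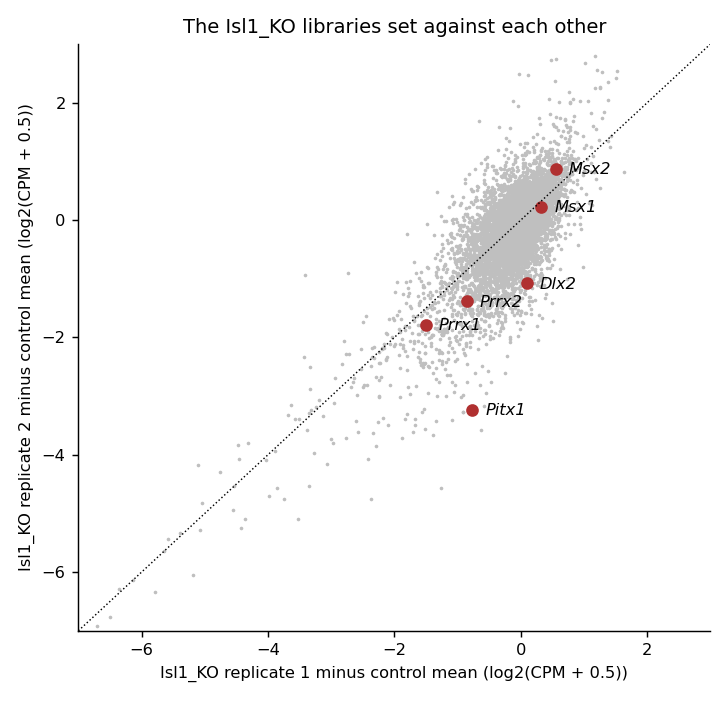
Difference of Isl1_KO replicate 1 (x axis) and of Isl1_KO replicate 2 (y axis) from the control mean, both in log2(CPM + 0.5), for 12715 genes (grey) and the tested homeobox genes (red), with a dotted line of equality. Among the red points Msx1, Msx2 and Prrx1 lie nearest the line. Prrx2 lies at -0.85 on the x axis and -1.39 on the y axis. Dlx2 lies at 0.10 and -1.07, and Pitx1 lies at -0.77 and -3.24.

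The Dlx genes were barely detected. Dlx2, the most abundant of them, had counts of 15 and 18 in control and of 26 and 7 in Isl1_KO, or 1.70 and 1.97 CPM against 2.00 and 0.607 CPM. The control values fell between the knockout values, so the groups overlapped. The log2 fold change was -0.46 (SE 0.571, 95% interval -1.91 to 0.99, edgeR adjusted p = 0.667), and it was 0.12 without Isl1_KO replicate 2.

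The 3 Dlx genes without a test were close to or below the floor of 3 counts in part of the libraries. Dlx1 had counts of 2 and 4 in control and of 9 and 6 in Isl1_KO, a depth-corrected ratio of 1.83 (95% exact binomial interval 0.671 to 5.75). Dlx5, which acts in arch and bone, had counts of 4 and 2 in control and of 6 and 1 in Isl1_KO, a ratio of 0.853 (0.246 to 3.07). Dlx6, its neighbour, had counts of 3 and 5 in control and of 2 and 2 in Isl1_KO, a ratio of 0.366 (0.0806 to 1.37). All of these intervals include a ratio of 1, so a difference was not detectable at this depth. They cover counting error only. Without the filter on low counts, the edgeR adjusted p was 0.564 for Dlx1, 0.930 for Dlx5 and 0.441 for Dlx6.

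Levels of different genes were compared per length, in RPKM, here the CPM divided by the length of the kept entry in kilobases. In control the order was Msx1 at 41.2 RPKM, Msx2 at 37.0, Prrx2 at 34.3, Pitx1 at 28.5, Prrx1 at 3.03, Dlx2 at 0.744, Dlx6 at 0.417, Dlx5 at 0.239 and Dlx1 at 0.120. Each of the first 6 was above the next without overlap, whereas Dlx6, Dlx5 and Dlx1 were not separated. In Isl1_KO the order was Msx2 at 61.2 RPKM, Msx1 at 49.9, Prrx2 at 15.8, Pitx1 at 9.76, Prrx1 at 0.907, Dlx2 at 0.528, Dlx1 at 0.218, Dlx5 at 0.195 and Dlx6 at 0.154. There Msx2 was above Msx1 in both libraries and Msx1 above Prrx2, but the lower of the Prrx2 values was below the higher Pitx1 value, and the same held for Prrx1 and Dlx2, so neither of these neighbours was separated beyond the spread. Of the counts of all 9 genes together, Msx2 held 27.7% and 28.3% in control and 40.9% and 55.1% in Isl1_KO. Pitx1 held 24.5% and 24.3% in control and 14.2% and 2.61% in Isl1_KO.

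Among 13 close homologues of these genes in the table, 5 could be tested and none passed the threshold in edgeR or DESeq2, and none had an unadjusted edgeR p under 0.05. Dlx3, a Dlx gene of epidermis and placenta, had counts of 42 and 48 in control and of 80 and 99 in Isl1_KO, a log2 fold change of 0.55 with an SE of 0.243 (95% interval -0.07 to 1.17, edgeR adjusted p = 0.252). The groups did not overlap. Its level per length was 2.66 and 2.53 times that of Dlx2 in control and 2.92 and 13.4 times in Isl1_KO.

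The aristaless-like gene Alx4, a mesenchymal factor of face and limb like Prrx1, had a log2 fold change of 0.08 (95% interval -0.34 to 0.50). Gsc (0.86), Hhex (0.42) and Otx2 (-0.28) did not pass the threshold either. Alx1, Barx1, Barx2, Dlx4 and Shox2 had between 1 and 11 counts in every library and were not tested. Shox2, a regulator of the sinus node and proximal limb, had counts of 5 and 11 in control and of 3 and 2 in Isl1_KO. Msx3 had at most 1 count and Pitx3 at most 2. Nkx3-2 had 0 counts in all libraries, which allows up to 3 counts or 0.231 to 0.341 CPM.

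**Figure D3:**
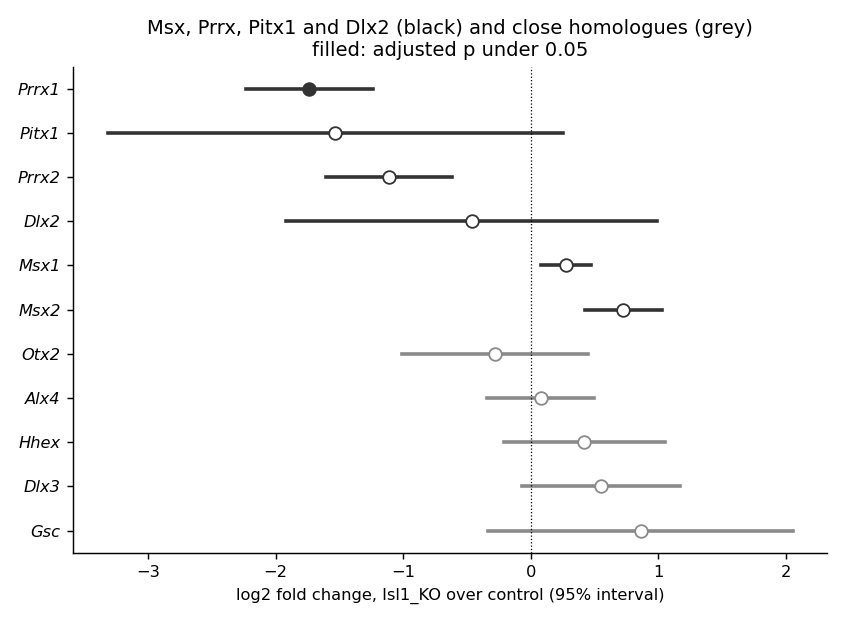
Log2 fold change of Isl1_KO over control with its 95% interval from edgeR for the 6 tested Msx, Prrx, Pitx and Dlx genes (black) and the 5 tested close homologues (grey), with filled circles for an adjusted p under the threshold. Prrx1 is the only filled circle among these 11 genes, and the interval of Pitx1 is wide.

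Msx genes respond to BMP signalling, so the pathway was read in the same fit. BMP ligands, 6 of 7 tested, showed no call in either direction and a median log2 fold change of -0.21, where the median of all genes tested was -0.0025. Bmp4, the ligand most often tied to Msx induction, had 176 and 178 CPM in control and 152 and 159 CPM in Isl1_KO, a log2 fold change of -0.19 with an SE of 0.0636 (edgeR adjusted p = 0.172). Bmp5 was at -0.22 and Bmp2 at -0.29 (edgeR adjusted p = 0.0876).

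None of the 10 receptors and Smads passed the threshold, and their median log2 fold change was -0.17. The type I receptor Bmpr1a was at -0.03, the common Smad4 at -0.08 and the type II receptor Bmpr2 at -0.17. Of the secreted antagonists, 4 of 6 could be tested and none passed (median -0.05), with Bmper at -0.52, Fst at 0.39 and Nog at 0.15.

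Of 7 BMP target and feedback genes none passed in edgeR, and their median log2 fold change was -0.02. The helix-loop-helix inhibitor Id3 was at -0.02, the inhibitory Smad6 at 0.22 and the decoy receptor Bambi at 0.04. Id1 (-0.36, edgeR adjusted p = 0.0626) and Id2 (-0.55, 0.0699), chosen after their values were seen, were below control in both knockout libraries, whereas Smad6 and its fellow inhibitory Smad Smad7 (0.23, adjusted p = 0.302) were above it in both, so the list held 3 positive and 4 negative values. By adjusted p, DESeq2 called Id2 (-0.54, adjusted p = 0.0155) and no ligand, receptor, Smad or antagonist. By the study's criteria it called Id4 (-1.01), the ligand Bmp7 (-0.64) and the receptor-regulated Smad9 (-0.75), all of them lower, and no antagonist. The unadjusted edgeR p was under 0.05 for 4 of 6 ligands and 3 of 10 receptors or Smads. It was so for 0 of 4 antagonists, 3 of 7 target or feedback genes and 23.2% of all genes tested. Every BMP gene with such a p was lower in Isl1_KO. Log2 fold changes were negative for 5 of 6 ligands, 9 of 10 receptors or Smads, 2 of 4 antagonists and 4 of 7 target or feedback genes. Of all 12715 genes tested, 6405 had a negative value.

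**Figure D4:**
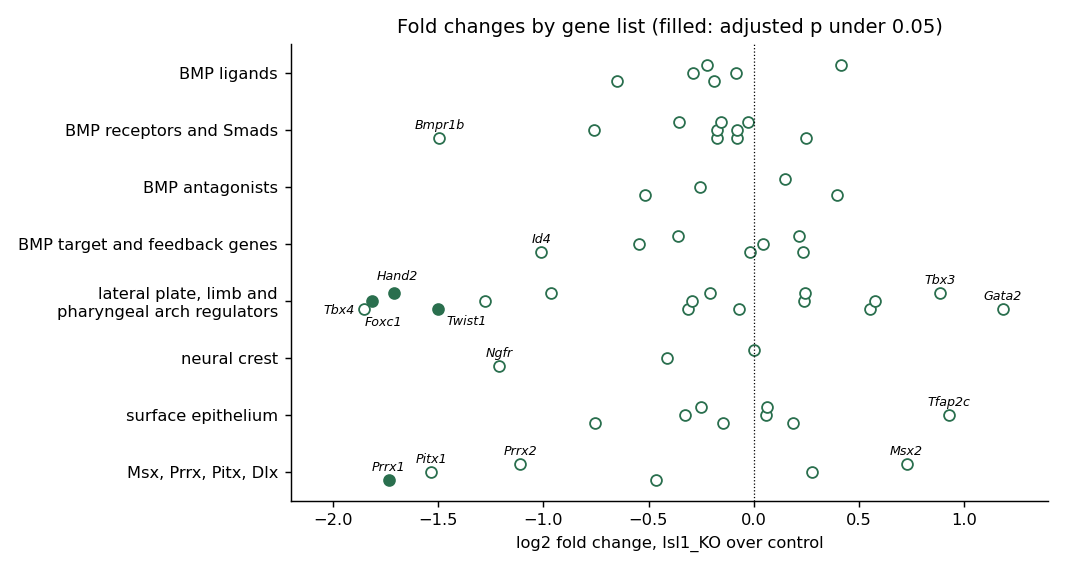
Log2 fold change of Isl1_KO over control for each tested gene of 7 lists and of the Msx, Prrx, Pitx and Dlx genes (one row each), with filled circles for an edgeR adjusted p under the threshold and small vertical offsets to separate points. The BMP rows hold open circles only, and Prrx1, Hand2, Foxc1 and Twist1 are the filled circles.

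Of 16 regulators of lateral plate, limb and pharyngeal arch, all of them tested, 3 were lower and none was higher in edgeR, with a median log2 fold change of -0.25, where 2.45% of all genes tested were called. The lower ones were Hand2 (-1.71, SE 0.182, edgeR adjusted p = 0.0204), which acts in limb bud and second heart field, Foxc1 (-1.81, SE 0.202, adjusted p = 0.0227), a mesenchymal forkhead factor, and Twist1 (-1.50, SE 0.228, adjusted p = 0.0466), a basic helix-loop-helix factor of mesenchyme. Hand2 also stands among the cardiac progenitor markers above, so its call counts in both lists. By adjusted p, DESeq2 called 7 of the 16 regulators, 4 lower and 3 higher, where it called 4.67% of all genes. The lower ones were the same 3 and Foxc2 (-1.28, DESeq2 adjusted p = 0.0438), and the higher ones were Gata2, Tbx3 and Foxf1 (0.56, DESeq2 adjusted p = 0.0108), a forkhead factor of visceral mesoderm. By the study's criteria 5 were lower, Tbx4 being added, and 2 were higher, Foxf1 being left out. Twist2 (-0.31), Snai2 (-0.07) and Hand1 (0.24) passed in none of these tests. The Twist1 call was lost with at least 10 counts in every library (adjusted p = 0.0558) and with all transcript entries (0.0514), and all 3 calls were lost without control replicate 1 and without control replicate 2.

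Some others of this list, chosen after their values were seen, resembled single homeobox genes in their values. Tbx4, the hindlimb and lung T-box gene downstream of Pitx1 in the hindlimb, had counts of 386 and 401 in control and of 247 and 58 in Isl1_KO, a log2 fold change of -1.85 with an SE of 0.536 (edgeR adjusted p = 0.137). As for Pitx1, Isl1_KO replicate 2 was far below replicate 1. Gata2 (1.18, adjusted p = 0.0876) and Tbx3 (0.89, adjusted p = 0.127) were above control in both knockout libraries without passing the threshold in edgeR, as was Msx2. Like Msx2, both were called higher by DESeq2 (adjusted p = 4.19e-04 for Gata2 and 0.00394 for Tbx3).

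Msx, Prrx and Dlx genes are also expressed in neural crest, surface epithelium and forebrain, so markers of these were read in the same libraries. The cells had been sorted for Nkx2-5-GFP, which selects for an active reporter, but the purity of the gate was not tested. Nkx2-5 mRNA itself was lower in both knockout libraries (log2 fold change -2.16, edgeR adjusted p = 0.00687). Whether the gate held the same kinds of cells in both groups was not tested. The defining neural crest genes were at or near the floor, with 2 and 1 counts of Sox10 in control and 2 and 5 in Isl1_KO, and Foxd3, Pax3 and Tfap2b at 3 counts or fewer in every library. Of 9 crest markers 3 were tested and none passed by adjusted p in edgeR or DESeq2 (2 had an unadjusted edgeR p under 0.05), while Ngfr was called lower by the study's criteria in DESeq2, which also called Prrx1 and Prrx2 lower. The summed level was 41.7 and 42.9 CPM in control and 29.5 and 29.7 CPM in Isl1_KO, most of it from Sox9 (-0.41), Ngfr (-1.21, adjusted p = 0.160) and Erbb3 (0.0023), which other cells express too. The sum was lower in both knockout libraries, as were Prrx1 and Prrx2, and its part in their values was not tested.

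Surface epithelium markers summed to 369 and 376 CPM in control and to 329 and 422 CPM in Isl1_KO, with 8 of 10 tested and none passing by adjusted p in edgeR or DESeq2 (2 had an unadjusted edgeR p under 0.05). By the study's criteria in DESeq2, which also called Msx2 higher, Tfap2c (0.94), a factor of surface ectoderm and trophoblast, was called higher. Cdh1, Cldn6 and Epcam, which other cells express too, made up most of the sum. The keratinocyte genes Krt5 and Trp63 were at 3 counts or fewer in every library. The groups overlapped in this sum, although Isl1_KO replicate 2 had the highest value both here and for Msx2 and Dlx3, and the part of such cells in those values was not tested. Of 6 forebrain markers 3 were tested, Gad2 (0.30), Pax6 (-1.18) and Gad1 (-0.90), and none passed in edgeR or DESeq2 (1 had an unadjusted edgeR p under 0.05), while the neurogenic factor Neurog2 was at 3 counts or fewer in every library. In these bulk libraries fewer cells of a type and less RNA per cell cannot be told apart, which holds for Prrx1, Prrx2 and Pitx1 as for the markers. Progenitor markers and the Prrx genes were lower in the same Isl1_KO libraries, and how far one accounts for the other was not tested.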

How the data were processed

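RNA was extracted from sorted Nkx2-5-GFP-positive CPCs of 2 control and 2 Isl1-/- clones, and TruSeq Stranded mRNA libraries were sequenced on a NextSeq500. Per the study's methods, the authors mapped reads to mm9 with STAR (alignIntronMin 20, alignIntronMax 500000) and counted them in RefSeq exons on both strands with HOMER (versions not given in the sources used here). The deposited table holds raw counts and RPKM values for 31507 transcript entries, and entries of a gene share reads. Its length column was used, and the authors' DESeq2 columns (mean, fold change, its error, test statistic and p-values) were not. The deposited RPKM values, normalised by the authors over all entries, were not tested.

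For each of 20701 symbols the entry holding the most counts over all libraries was used, ties going to the longer entry. Counts were tested with edgeR 4.0.16 in R 4.3.3 (TMM, filterByExpr, quasi-likelihood F test, two-sided, adjusted over 12715 genes), after the script was tested on simulated data. DESeq2 1.42.0 and other settings were alternatives. CPM used effective library sizes, and a pseudocount of 0.5 CPM was added for log2 levels per library. The smallest two-sided p that an exact permutation test of 2 against 2 could give was 0.333, so none was used. Deviations of libraries with a shared number were unrelated (r = 0.0105 over 12715 genes), so numbers do not pair the samples. Totals were 8821536 and 9147419 (control) and 13186103 and 11388326 (Isl1_KO).

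The genes and lists were chosen with earlier results of these data known. Named were all 9 genes, Isl1, every close homologue listed, each listed gene past the threshold (up to 6 a list) or otherwise the 3 with the highest mean count, and the 3 genes most like Msx1 and Msx2; exceptions, chosen after their values were seen, are marked as such or are list genes called by DESeq2 or set beside those calls. Some genes of the lists are not reported here and were left out of them. None of 7 antisense names was in the table. Pitx1, Dlx5 and Dlx6 had no entry in the promoter table, and 6 of 9 genes did.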

Additional observations from a re-analysis of the deposited data

How the results depend on the processing

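The number of genes called was 312 with all libraries. It was 604 with DESeq2 (307 of them shared), 992 with the study's criteria in DESeq2 (unadjusted p under 0.05 and an absolute log2 fold change above 0.58; 267 shared), 492 without a filter on low counts, and between 28 and 6355 when 1 library was left out. Of the Msx, Prrx, Dlx and Pitx genes 1 was called; this was 3 (Msx2 higher, Prrx1 and Prrx2 lower) with DESeq2, with the study's criteria and without a filter, and between 0 and 6 when 1 library was left out. No such gene was called without control replicate 1 or without control replicate 2, 6 were called without Isl1_KO replicate 1 and 5 without Isl1_KO replicate 2, fits in which the lone library is assumed to vary like the other group. Of the genes of the other lists 10 were called, against 17 with DESeq2, 20 with the study's criteria and between 3 and 57 when 1 library was left out. A replicate block gave 428 called genes (290 shared), 3 of the Msx and Prrx genes and 14 list genes, but the samples share only a number. In that fit the adjusted p was 0.0257 for Msx2, 0.0315 for Prrx2 and 0.0184 for Prrx1.

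Directions of genes that were not called turned in a few settings. Erbb3 was at -0.0052 with at least 10 counts in every library and at -0.054 with the replicate block. With 1 library left out, log2 fold changes spanned -1.58 to 0.12 for Dlx2, -0.090 to 0.23 for Alx4, -0.61 to 0.0014 for Otx2, -0.060 to 0.0034 for Bmpr1a, -0.69 to 1.02 for Fst, -0.067 to 0.40 for Nog, -0.15 to 0.10 for Id3, -0.17 to 0.22 for Bambi, -0.61 to 0.44 for Erbb3, -0.039 to 0.75 for Gad2 and -0.12 to 0.22 for Cdh1. The cause was not tested. Msx1, Msx2, Prrx1, Prrx2 and Pitx1 kept their direction in all 11 alternatives. Depth limits Dlx1, Dlx5 and Dlx6, and the spread of the Isl1_KO clones limits Pitx1.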
